A study of Mus musculus with 4 samples.

Results

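*Ash1l* and 9 other genes of histone H3 lysine 36 (H3K36) methylation were followed in mouse prefrontal cortex (PFC) after knockdown of *Ash1L*. The 10 genes were taken by name from the 23420 gene symbols of the count tables, and they hold 4 methyltransferases (*Ash1l*, *Nsd1*, *Setd2* and *Setmar*), 2 proteins that bind methylated H3K36 (*Morf4l1* and *Psip1*) and 4 demethylases (*Kdm2a*, *Kdm2b*, *Kdm4a* and *Kdm4c*). All 10 passed the filter on low counts. The 4 samples were bulk PFC lysates of C57BL6/J mice, for which the labels give no engineered allele. For the 2 control samples the labels give an injection of GFP-AAV9, while the methods describe the control virus as scrambled shRNA AAV. For the 2 *Ash1L* shRNA samples the labels give shRNA_ASH1L-AAV9. By the methods, virus was injected into the medial PFC on both sides at 5 weeks of age, PFC punches with GFP fluorescence were taken, and tissue of 3 mice made up each sample. The design text instead puts the mice at 6 to 8 weeks old and lists 3 that received the shRNA and 2 controls. The shRNA was expressed from the U6 promoter, which is not specific to a cell type, and the share of infected cells in the punches was not measured in these files. The p-values rest on 2 samples in each group, which the labels call biological duplicates. In edgeR's test the spread of a gene between these samples was combined with a trend over all tested genes.

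ASH1L, NSD1 and SETD2 are SET domain enzymes of chromatin. ASH1L and NSD1 place mono- and dimethylation on H3K36, and SETD2 places trimethylation along transcribed genes. Dimethylated H3K36 opposes the silencing mark that Polycomb repressive complex 2 places on H3K27, and mutations of *ASH1L*, *NSD1* and *SETD2* are known causes of neurodevelopmental disorders. MORF4L1 (also called MRG15) binds methylated H3K36 through its chromodomain and is a cofactor of ASH1L. KDM2A and KDM2B are demethylases with activity towards dimethylated H3K36, and KDM4A and KDM4C remove trimethylation from H3K9 and H3K36.

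*Ash1l* lies on the forward strand at chr3:88950622-89079375 (mm10, GENCODE vM21), with 14.84 kb of exonic sequence. The primer pair that the study used to measure *Ash1l* mRNA by quantitative PCR is shown, with the amplicon between the primers. It marks the piece of the transcript on which the knockdown was followed apart from the sequencing. By quantitative PCR the study reported significantly less *Ash1L* mRNA in PFC given the shRNA virus. Its Western blots showed less Ash1L protein and less trimethylated H3K4, without a significant change of di- or trimethylated H3K36. The forward primer lies at chr3:89066371-89066390, in exon 20 of the 28 exons of the longest transcript, Ash1l-202. The reverse primer spans the junction of exons 22 and 23, between positions 89069077 and 89070246. Both primers lie in coding sequence and were found in 2 of the 4 annotated *Ash1l* transcripts. The primers are written 5′ to 3′, and in the amplicon, read from the GENCODE transcript, capitals mark the primer sites.
Ash1l forward primer: GCGGCCTCTATAAAGATGAA
Ash1l reverse primer: ATCAGGTACACACAATCACC
Ash1l amplicon: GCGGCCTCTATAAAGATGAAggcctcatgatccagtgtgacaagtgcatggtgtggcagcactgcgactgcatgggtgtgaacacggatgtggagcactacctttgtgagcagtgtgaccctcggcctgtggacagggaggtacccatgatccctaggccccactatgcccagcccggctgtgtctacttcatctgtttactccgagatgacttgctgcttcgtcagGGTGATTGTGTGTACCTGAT

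*Ash1l* was the member with the largest drop, and *Kdm4a* was the only other member that passed the rule for a lower gene. The mRNA of the other methyltransferases, *Nsd1*, *Setd2* and *Setmar*, did not pass the test, and neither did that of either protein that binds the mark. A gene was called DOWN or UP where its p from edgeR's quasi-likelihood test, before adjustment, was under 0.05 and its change was at least 1.2-fold. Both limits are those of the study, which tested with DESeq2 and names no adjustment of p in its definition. By this rule 2 of the 10 genes (20%) were DOWN and 0 were UP, no other member had an unadjusted p under 0.05, and DESeq2 gave the same counts. Over the 16232 genes tested, 8.28% were DOWN and 8.61% were UP, so that 2 DOWN genes among 10 is a count of the members and was not tested as an excess. The median log2 fold change was 0.01 over the 10 members and -0.0027 over all tested genes. After Benjamini-Hochberg adjustment over all genes, edgeR's test left each of the 10 above 0.05, a limit that 1 gene of the 16232 passed, whereas 2746 genes had an unadjusted p under 0.05. DESeq2 also left all 10 members above an adjusted p of 0.05, with 420 genes past it.

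*Ash1l* was counted at 5961 and 7057 normalized reads in control samples 1 and 2, and at 5246 and 3345 in *Ash1L* shRNA samples 1 and 2. Normalized counts are deposited counts scaled by TMM, edgeR's correction for library size and composition. Both shRNA samples were below both controls, but they were far apart, with shRNA sample 1 at 80.6% of the control mean and shRNA sample 2 at 51.4%, against 91.6% and 108% for the controls themselves. The log2 fold change was -0.60 (SE 0.22, n = 2 and 2, 95% interval -1.15 to -0.05), a change of -34.0% with an interval from -54.8% to -3.62% (edgeR's quasi-likelihood test, Benjamini-Hochberg adjusted p = 0.275). In order of p, *Ash1l* ranked 2141 of the 16232 genes. An exact permutation test of 2 against 2 samples cannot go below p = 0.333 and was therefore not used. In bulk tissue, fewer cells of a type and less RNA per cell cannot be told apart.

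The *Ash1l* call rested on the spread of so few samples. It held without shRNA sample 1, where the log2 fold change was -0.97 (adjusted p = 0.0063), and it was lost without shRNA sample 2 (-0.31, adjusted p = 0.458), without control sample 1 (-0.71, adjusted p = 0.551) and without control sample 2 (-0.48, adjusted p = 0.87). With an offset for gene length the fold change was -0.55 and the call was lost as well (adjusted p = 0.321). The direction was the same in each of these fits.

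**Figure D1:**
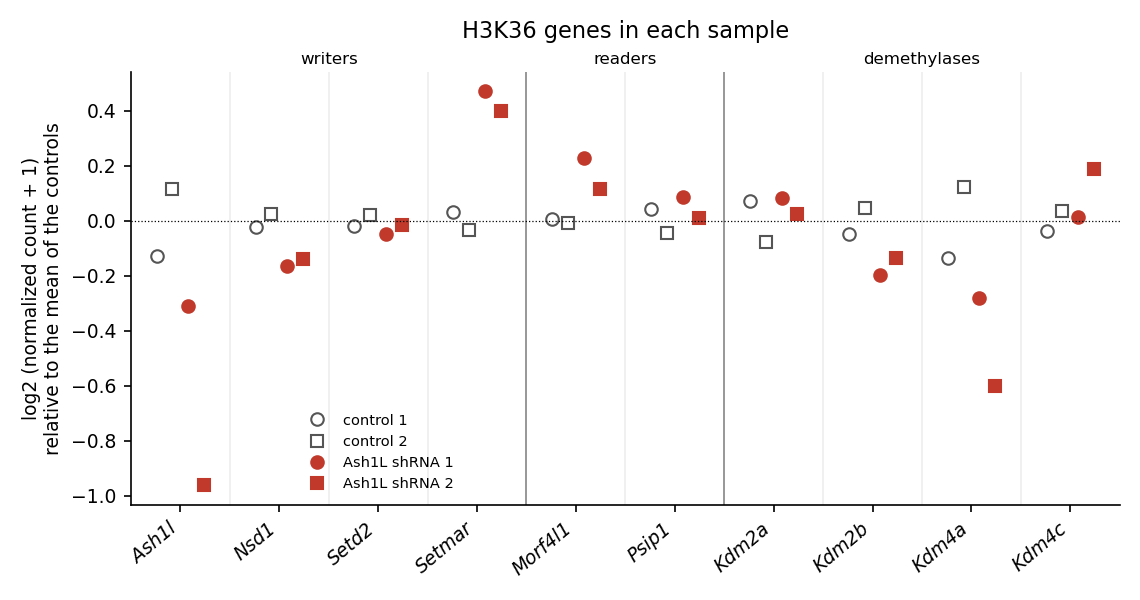
The log2 normalized count (plus 1) of each gene in each sample, relative to the mean of the control samples, with open symbols for controls and filled symbols for *Ash1L* shRNA samples. *Ash1l* and *Kdm4a* stood lowest in shRNA sample 2, at -0.96 and -0.60, and *Setmar* stood highest in both shRNA samples, at 0.47 and 0.40.

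Among the other methyltransferases none was called. *Nsd1* (chr13:55209782-55318325) had 8677 and 8968 normalized counts in the controls and 7882 and 8012 in the shRNA samples. The shRNA samples lay below both controls and close to each other, and the log2 fold change was -0.15 (SE 0.11, 95% interval -0.41 to 0.11, adjusted p = 0.49). *Setd2* (chr9:110532597-110618633) had 3449 and 3546 in the controls and 3382 and 3463 in the shRNA samples. The groups of *Setd2* overlapped, its log2 fold change was -0.03 (SE 0.11, 95% interval -0.29 to 0.22, adjusted p = 0.9), and its sign turned with library-size scaling (0.0096) and with the gene-length offset (0.0052).

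*Setmar* (chr6:108065045-108077122) encodes a SET domain protein that has been described as an H3K36 dimethyltransferase, and in mouse it lacks the transposase part of the primate protein. It had 165 and 158 normalized counts in the controls and 225 and 214 in the shRNA samples. Both shRNA samples were above both controls, with a log2 fold change of 0.44, the largest rise among the members, which did not pass the test (SE 0.20, 95% interval -0.05 to 0.93, adjusted p = 0.324). It rested on the fewest reads of the 10 genes, from 96 raw counts in control sample 1 to 253 in shRNA sample 1. Leaving out any 1 sample gave between 0.40 and 0.48 and no call.

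Of the genes that encode proteins binding methylated H3K36, *Morf4l1* (chr9:90091665-90114774) had 5206 and 5147 normalized counts in the controls and 6070 and 5607 in the shRNA samples. Both shRNA samples were higher, by a log2 fold change of 0.17 (SE 0.11, 95% interval -0.09 to 0.44, adjusted p = 0.443) that did not pass. *Morf4l1* has a close relative, *Morf4l2*, and an annotated pseudogene, so that its counts depend on how reads with several matches were handled, for which no setting is stated. *Psip1* (chr4:83455680-83486459), which encodes LEDGF, a PWWP domain protein, had 4564 and 4303 in the controls and 4706 and 4467 in the shRNA samples. Its groups overlapped and its log2 fold change was 0.05 (SE 0.11, 95% interval -0.22 to 0.31, adjusted p = 0.84).

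Of the demethylases, *Kdm4a* was DOWN and the other 3 did not pass. *Kdm4a* (chr4:118136957-118180043) had 1437 and 1722 normalized counts in the controls and 1301 and 1041 in the shRNA samples. Both shRNA samples were below both controls, and shRNA sample 2 was again the lowest, at 65.9% of the control mean against 82.4% for shRNA sample 1. The log2 fold change was -0.43 (SE 0.16, 95% interval -0.82 to -0.05), a change of -25.9% (adjusted p = 0.269 in edgeR's quasi-likelihood test). The call was lost without control sample 2 (-0.30) and without shRNA sample 2 (-0.28), and it held without shRNA sample 1 (-0.61) and without control sample 1 (-0.55).

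*Kdm4c* (chr4:74242497-74405860), of the same enzyme family, had 1203 and 1268 normalized counts in the controls and 1247 and 1409 in the shRNA samples. These values overlapped, with a log2 fold change of 0.10 (SE 0.12, 95% interval -0.19 to 0.40, adjusted p = 0.689). The count of *Kdm4a* divided by that of *Kdm4c* in the same library was 1.19 and 1.36 in the controls and 1.04 and 0.739 in the shRNA samples. This ratio needs no scaling between libraries, and it was lower in both shRNA samples.

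*Kdm2a* (chr19:4314419-4398285) had 3042 and 2738 normalized counts in the controls and 3064 and 2943 in the shRNA samples, with overlapping groups and a log2 fold change of 0.06 (SE 0.11, 95% interval -0.22 to 0.33, adjusted p = 0.824). Its sign turned without control sample 2 (-0.02). *Kdm2b* (chr5:122870665-122989823), a subunit of a variant Polycomb repressive complex 1, had 570 and 609 in the controls and 514 and 536 in the shRNA samples. Both shRNA samples of *Kdm2b* were lower, by a log2 fold change of -0.17 (SE 0.13, 95% interval -0.49 to 0.15, adjusted p = 0.537) that did not pass.

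In both shRNA samples 4 of the 10 genes (*Ash1l*, *Nsd1*, *Kdm2b* and *Kdm4a*) were below both controls, while 2 (*Setmar* and *Morf4l1*) were above both and 4 overlapped. Over all tested genes 26.8% were below and 26.5% above in this sense, and the members' counts of 4 and 2 are to be read beside these shares. By role, 1 of 4 methyltransferases, 0 of 2 binding proteins and 1 of 4 demethylases were DOWN, beside 8.28% of all tested genes.

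**Figure D2:**
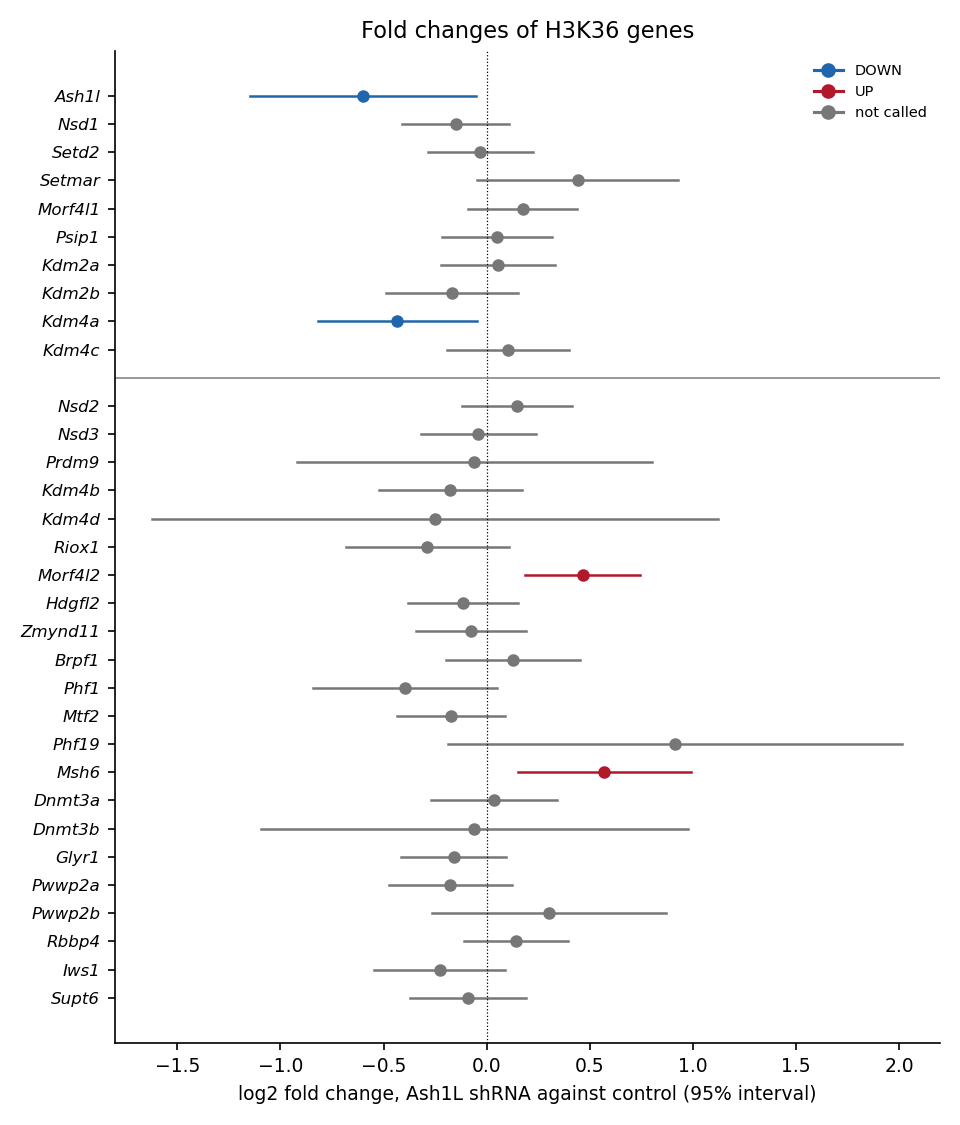
The log2 fold change of *Ash1L* shRNA against control with its 95% interval, for the 10 members above the line and the 22 genes of a wider list under it. DOWN genes are in blue and UP genes in red. *Ash1l* (-0.60) and *Kdm4a* (-0.43) were DOWN, *Morf4l2* (0.47) and *Msh6* (0.57) were UP, and the widest intervals belonged to genes with few reads such as *Kdm4d*, *Dnmt3b* and *Phf19*.

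The fall of *Ash1l* was also examined against the other 9 genes within each library, where depth cancels. The *Ash1l* count divided by the geometric mean of the other 9 counts was 3.11 and 3.62 in the controls and 2.67 and 1.75 in the shRNA samples. The ratio was lower in both shRNA samples, and the mean of its log2 differed by -0.63 from control. Against *Nsd1*, which places the same marks, the ratio was 0.687 and 0.787 in the controls and 0.666 and 0.418 in the shRNA samples. Against *Setd2* it was 1.73 and 1.99 in the controls and 1.55 and 0.966 in the shRNA samples, lower in both.

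With each of the 9 reference genes in turn, both shRNA libraries had a lower ratio than both control libraries. All 9 ratios share the same *Ash1l* counts and so largely repeat its drop. They are not 9 separate results. The difference of the log2 ratio was smallest against *Kdm4a* (-0.20), where the ratios were 4.15 and 4.10 in the controls and 4.03 and 3.21 in the shRNA samples, and largest against *Setmar* (-1.07), where they were 36.03 and 44.63 against 23.3 and 15.7. The fall of *Ash1l* relative to *Kdm4a* in shRNA sample 1 was thus slight. Such ratios show an unequal change of 2 genes and do not tell which of them changed.

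**Figure D3:**
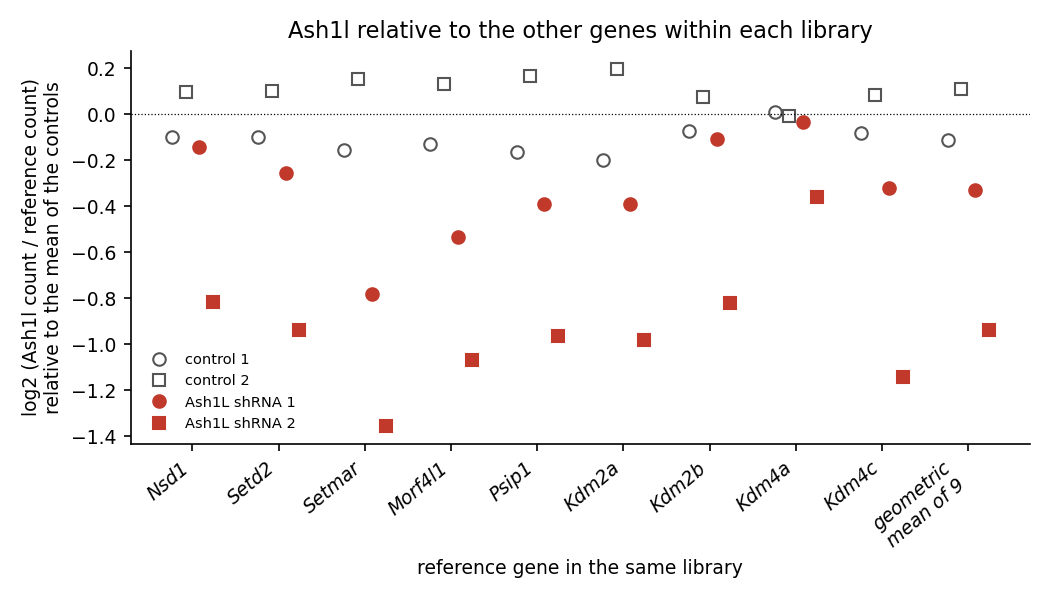
The log2 ratio of the *Ash1l* count to the count of each other member in the same library, relative to the mean of the control libraries, and in the last column the ratio to the geometric mean of all 9. Filled *Ash1L* shRNA symbols lie below the open control symbols in each column, closest for *Kdm4a* (difference of the means -0.20) and farthest for *Setmar* (-1.07).

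Levels were compared between genes per kilobase of exonic sequence, as counts per kilobase in a library of standard size after TMM normalization (RPKM). In the controls *Psip1* was highest at 35.9 ± 1.49 (SD, n = 2), followed by *Morf4l1* at 21.8 ± 0.177 and *Nsd1* at 20.7 ± 0.481. *Ash1l* was the fourth gene at 18.0 ± 2.15, above *Setd2* at 13.4 ± 0.262, *Kdm4a* at 11.2 ± 1.43, *Kdm4c* at 8.72 ± 0.323 and *Kdm2a* at 8.22 ± 0.611. *Setmar* at 3.77 ± 0.121 and *Kdm2b* at 2.23 ± 0.103 were lowest. Of neighbours in this order, the control values of *Kdm4c* and *Kdm2a* overlapped.

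In the *Ash1L* shRNA samples the RPKM of *Ash1l* was 11.9 ± 3.72 (SD, n = 2), with 14.5 in sample 1 and 9.27 in sample 2. It was the fifth gene there, under *Setd2* at 13.1 ± 0.219, although the values of both genes overlapped, and those of *Ash1l* overlapped with those of the next gene, *Kdm4c* (9.37 ± 0.806), as well. *Kdm4a* was the sixth gene in the controls and the eighth in the shRNA samples, at 8.33 ± 1.31, where its values (7.40 to 9.25) overlapped those of both *Kdm2a* (8.37 to 8.72) and *Kdm4c* (8.80 to 9.94). *Psip1*, *Morf4l1* and *Nsd1* stayed the highest and *Setmar* and *Kdm2b* the lowest in both groups. Levels depend on the length used. Per kilobase of the longest transcript *Ash1l* was also the fourth gene in the controls, at 23.0 ± 2.74, but *Kdm2a* (13.8) then came before *Kdm4c* (12.1), and *Kdm2b* (4.68) before *Setmar* (3.80).

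**Figure D4:**
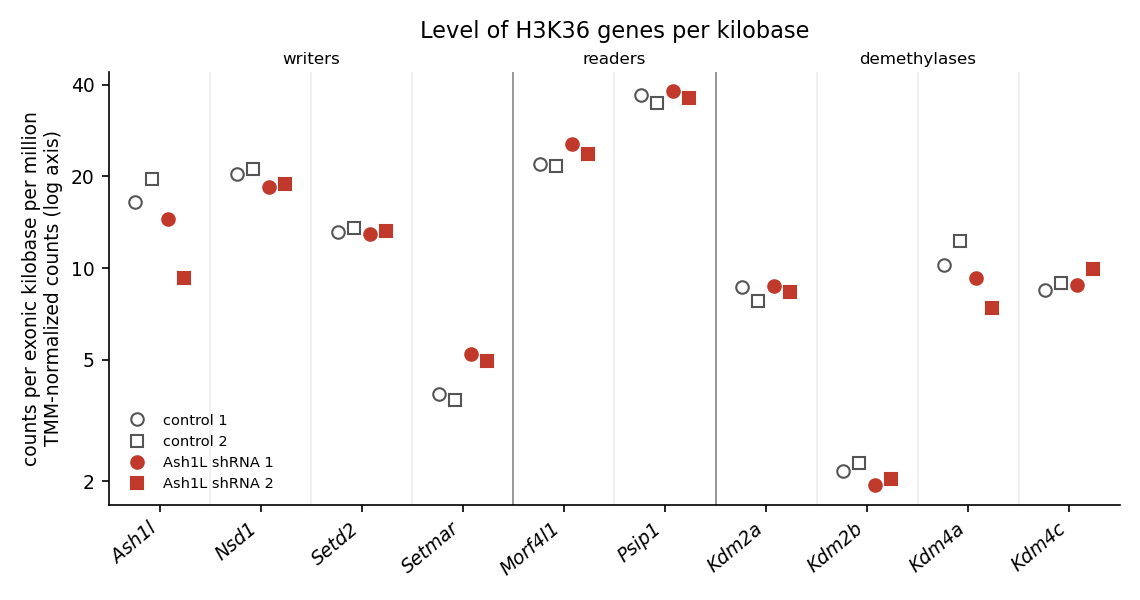
The level of each gene in each sample in RPKM over exonic sequence, on a log axis. *Psip1* (35.9 in the controls) was highest and *Kdm2b* (2.23) lowest, and *Ash1l* went from 18.0 in the controls to 14.5 and 9.27 in the *Ash1L* shRNA samples.

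A wider list of 22 genes, taken for parts in H3K36 methylation or as relatives of such genes, held further methyltransferases, demethylases, binding proteins and partners. All 22 were tested. Among them 0 were DOWN and 2 (9.09%) were UP, beside 8.28% and 8.61% of all tested genes, and 14 had a log2 fold change below 0, with a median of -0.07. No other gene of the list had an unadjusted p under 0.05, and DESeq2 also called 0 DOWN and 2 UP. *Morf4l2*, the relative of *Morf4l1*, had 7121 and 6418 normalized counts in the controls and 9160 and 9534 in the shRNA samples. Both shRNA samples were higher and close to each other, and the log2 fold change was 0.47 (SE 0.12, adjusted p = 0.253 in edgeR's quasi-likelihood test). The ratio of *Morf4l2* to *Morf4l1* counts was 1.37 and 1.25 in the controls and 1.51 and 1.70 in the shRNA samples, higher in both.

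*Msh6*, a mismatch repair protein whose PWWP domain binds trimethylated H3K36, had 1001 and 888 normalized counts in the controls and 1192 and 1610 in the shRNA samples. It was higher in both shRNA samples, by a log2 fold change of 0.57 (SE 0.17, adjusted p = 0.26 in edgeR's quasi-likelihood test). Without control sample 2 neither *Morf4l2* nor *Msh6* was called, and without shRNA sample 2 the fold change of *Msh6* was 0.34, still UP. The lowest log2 fold change of the list was that of *Phf1* (-0.40, adjusted p = 0.33), a Tudor domain protein that binds trimethylated H3K36 and associates with Polycomb repressive complex 2, and the highest was that of its relative *Phf19* (0.91, adjusted p = 0.351), which had only 17 to 54 raw counts in a sample. Neither passed. The other members of the NSD family, *Nsd2* (0.15, adjusted p = 0.517) and *Nsd3* (-0.04, adjusted p = 0.882), which the files list as *Whsc1* and *Whsc1l1*, did not pass either.

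The genes whose pattern over the 4 samples was most like that of *Ash1l* were *Cdk19*, *Cacnb3*, *Lrrtm3*, *Gria3* and *Mcrs1*, by the smallest distance of centred log2 normalized counts among 8169 genes with a mean of at least 500. Their distances ran from 0.044 to 0.058, and their log2 fold changes from -0.63 to -0.56. The nearest, *Cdk19*, a kinase of the Mediator complex, had 1815 and 2239 normalized counts in the controls and 1614 and 1040 in the shRNA samples. Like *Ash1l*, it was highest in control sample 2 and lowest in shRNA sample 2. With 4 samples such a likeness is a description.

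Depth and cell type markers are given beside these values, and some marker sums moved with them. Total counts were 14251190 and 35764874 in control samples 1 and 2, and 27479339 and 20106708 in shRNA samples 1 and 2. The part of depth in the values of *Ash1l* and *Kdm4a*, which were lowest in shRNA sample 2, was not tested. Markers of all 10 cell classes examined were detected, and none of the markers was at 0 in every sample. Genes with only a few reads meet this limit too, so it does not settle which cell types were present. Over all tested genes 8.28% were DOWN and 8.61% UP. The astrocyte markers were DOWN in 5 of 7, while *Aqp4* (log2 fold change 0.11) and *Gfap* (0.0007) were not called. The summed level of all 7, in CPM, the counts per library of standard size, was 5364 to 5680 in the controls. It was 3211 to 4330 in the shRNA samples. Excitatory neuron markers were DOWN in 4 of 6 (2453 to 2910 against 1863 to 2248), pan-neuronal markers in 1 of 6 (6892 to 7019 against 5293 to 6214) and interneuron markers in 2 of 6 (615 to 672 against 560 to 584). Markers of monocytes and macrophages were DOWN in 2 of 4 (204 to 339 against 61.4 to 128) and those of T cells in 4 of 5 (9.28 to 15.6 against 2.65 to 3.36). The T cell calls rested on few reads, with 7 and 2 raw counts of *Cd3d* in shRNA samples 1 and 2. No microglial marker of 6 was called (579 to 596 against 298 to 696), nor were any of 6 oligodendrocyte markers (2503 to 2818 against 2371 to 2696) or of 5 endothelial markers (212 to 254 against 235 to 256), and 1 of 3 markers of oligodendrocyte precursors was UP (181 to 182 against 173 to 234). In 8 of the 10 lists, all but those of interneurons and endothelial cells, shRNA sample 2 had the lowest sum, as it had the lowest *Ash1l* and *Kdm4a*. A sum does not stand for each gene of its list. Of the precursor markers, *Gpr17* was at 39.3% of its control mean in shRNA sample 2, while *Pdgfra* and *Cspg4* were at 125% and 140%. *Map2*, *Nefl* and *Aqp4* were also above their control means there, at 108%, 129% and 118%. The part of cell composition in the values of *Ash1l* and *Kdm4a* was not tested.

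The fold changes of *Ash1l*, *Kdm4a* and *Setmar* were followed through 10 other settings of the analysis, besides the fits without 1 sample. *Ash1l* stayed between -0.63 and -0.55 and was DOWN in 8 of the 10, *Kdm4a* stayed between -0.44 and -0.39 and was DOWN in 8, and *Setmar* stayed between 0.41 and 0.48 and was called in 0. The adjusted p ran from 0.143 to 0.409 for *Ash1l*, lowest with DESeq2, from 0.24 to 0.408 for *Kdm4a* and from 0.296 to 0.512 for *Setmar*. Without shRNA sample 1 it was 0.0063, and that of *Kdm4a* was 0.0367, in a fit by edgeR's quasi-likelihood test in which 2502 genes passed an adjusted p of 0.05 and in which the lone shRNA sample was assumed to vary like the controls.

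**Figure D5:**
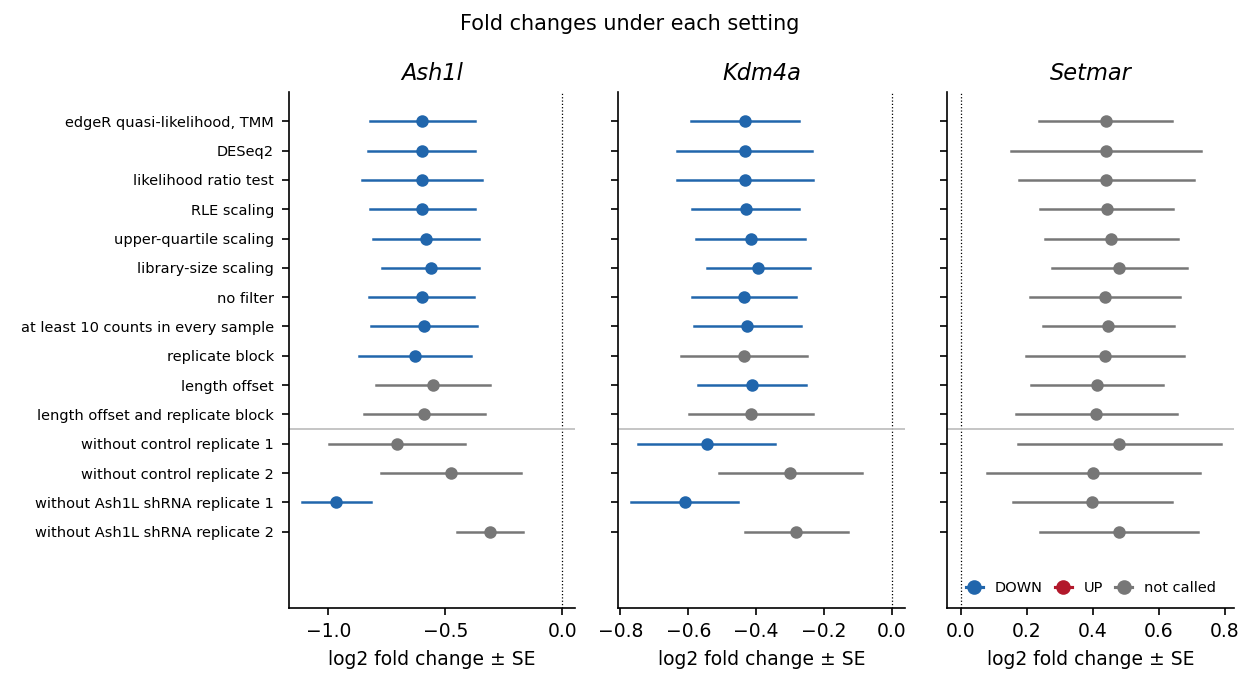
The log2 fold change ± SE of *Ash1l*, *Kdm4a* and *Setmar* in the reported fit (first line), under each other setting and, under the grey line, without each sample, in blue where the gene was DOWN and in grey where it was not called. The values of *Ash1l* moved little between settings (-0.63 to -0.55) and more with the sample left out (-0.97 to -0.31), while *Setmar* stayed between 0.40 and 0.48 throughout.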

How the data were processed

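Stranded total RNA libraries depleted of ribosomal RNA were sequenced for 2 control and 2 *Ash1L* shRNA samples. Alignment to mm10 was done by the authors with STAR and counting with featureCounts, while the protocol in the labels names Cutadapt and TopHat2. The authors deposited unnormalized counts for each symbol. No strand or multiple-mapping setting is stated, so genes that overlap or have close copies may share reads. Genes were filtered (filterByExpr), normalized (TMM) and tested with edgeR 4.0.16 (R 4.3.3), by robust quasi-likelihood with Benjamini-Hochberg adjustment over 16232 genes, and the SE is the log2 fold change over the root of F. DESeq2 1.42.0 and other settings were alternatives. Lengths came from GENCODE vM21 (98.4% of symbols). The script was tested on simulated data. The members and all gene lists were chosen with earlier results of these data known. The text names all members, wider-list genes that were called or lowest and highest, and the 5 genes nearest *Ash1l* in pattern. Others, such as *Nsd2* and *Nsd3*, were chosen after their values were seen. The chi-square per degree of freedom of replicates was 13.0 (control) and 37.0 (shRNA), above counting error. Deviations of same-numbered samples had a correlation of -0.105, and no source pairs them.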

Additional observations from a re-analysis of the deposited data

How the results depend on the processing

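Genes past an adjusted p of 0.05 numbered 1 in the reported fit, 420 with DESeq2, 479 with the likelihood ratio test and 34 without a filter. With a block for the replicate number 0 genes passed (2072 at an unadjusted p under 0.05), and 0 with the length offset and the block (2097). The members called DOWN were 1 with the block (*Ash1l* at -0.63, while *Kdm4a* at -0.44 lost its call, adjusted p = 0.401), 1 with the length offset (*Kdm4a*) and 0 with both, where *Ash1l* was at -0.59 (adjusted p = 0.409) and *Kdm4a* at -0.41. With the length offset alone *Ash1l* was at -0.55. With the block, and with block and offset, 1 gene of the wider list was DOWN (*Phf1*). The cause of these changes was not tested. At a 1.5-fold limit 1 member (*Ash1l*) was DOWN, 0 genes of the wider list were UP, and 491 genes in all were DOWN and 765 UP. *Setd2* turned positive with library-size scaling (0.0096), the length offset (0.0052) and the offset with the block (0.0056), and *Kdm2a*, from -0.023 to 0.14 without 1 sample, turned negative without control sample 2. The difference of the log2 ratio of *Ash1l* to another member was -1.07 against *Setmar* and -0.20 against *Kdm4a*, beside -0.63 against all 9.

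Deviations of same-numbered samples were only weakly and negatively correlated (-0.105). A block for the crossed pairing was added after seeing the data, and it gave 16 genes past an adjusted p of 0.05, with 2 members DOWN. Without 1 sample, *Ash1l* ran from -0.97 to -0.31, members DOWN from 0 to 2, wider-list genes DOWN from 0 to 3 (*Kdm4d*, *Phf1* and *Iws1*, without shRNA sample 1) and UP from 0 to 3, all genes DOWN from 306 to 2718 and UP from 423 to 2368, and genes past an adjusted p of 0.05 from 0 to 2502. No count of members UP differed from 0 in any setting. The fewest raw counts behind a member in any sample were 96, for *Setmar*. In the wider list they were 13 for *Dnmt3b*, 17 for *Phf19*, 18 for *Kdm4d* and 39 for *Prdm9*. An effect of depth on the intervals of these genes was not tested.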

Other observations

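Where the annotation places exons of another counted gene on the opposite strand, the values of that gene are given, since no strand setting of the counting is stated. *Dap3*, which shares 352 exonic bases with *Ash1l*, had 1537 and 1498 normalized counts in the controls and 1680 and 1755 in the shRNA samples, higher in both (log2 fold change 0.18, adjusted p = 0.419), opposite to *Ash1l*. *Snapc3*, which shares 483 bases with *Psip1*, had a log2 fold change of -0.28 (adjusted p = 0.388). *Rnf34* and *A930024E05Rik*, which share 627 and 199 bases with *Kdm2b*, had 0.15 (adjusted p = 0.609) and 0.24 (adjusted p = 0.742). None of the 4 passed the test in edgeR's quasi-likelihood fit.

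Ratios within a library also lay apart between the groups for some pairs of members that were not called. The count of *Nsd1* over that of *Setd2* was 2.52 and 2.53 in the controls and 2.33 and 2.31 in the shRNA samples, lower in both. The count of *Kdm2a* over that of *Kdm2b* was 5.33 and 4.50 in the controls and 5.96 and 5.49 in the shRNA samples, higher in both. These pairs were chosen as relatives in function, and no test was made of the ratios. Among single tested genes, 26.8% were below both controls in both shRNA samples and 26.5% above. No such share was computed for ratios, here or for the ratios given earlier.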
